A study of Mus musculus with 23 samples.

Results

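Hmgcs1, Sqle, Idi1, Fdps, Cyp51, Insig1, Srebf2 and Lss are 8 mouse genes of cholesterol synthesis and its control, and they are described here in the aorta of ApoE-/- mice. They were chosen by name, with earlier results of these data known, from the 30176 genes that had a probe set of their own symbol among 65956 gene-level probe sets. Where a symbol has several probe sets the brightest over 23 arrays stands for the gene, and here each of the 8 had 1. All mice were male ApoE-/- animals of the C57BL/6J strain, bought at 8 weeks of age, that lacked apolipoprotein E in every tissue and ate high-fat feed throughout, so that no group shows the normal mouse or the normal diet. Nor 8W (n = 5) and Nor 12W (n = 5) were kept in normoxia for 8 and 12 weeks. CIH 8W (n = 5) and CIH 12W (n = 4) were kept in chronic intermittent hypoxia (CIH), in which the oxygen in the chamber is lowered and restored in short cycles during the hours of sleep. CIH 8W+Nor 4W (n = 4) had 8 weeks of CIH and then 4 weeks of normoxia. Values are log2 signals, so a difference of 1 is a 2-fold change, and a level of 1 gene is not set against that of another.

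Cells make cholesterol from acetyl-CoA through mevalonate, isoprenoid units, squalene and lanosterol. When sterols in the endoplasmic reticulum run low, the transcription factor SREBP-2, the product of Srebf2, is carried to the Golgi, cut, and sent to the nucleus, where it turns on nearly every gene of the pathway, and when sterols are plentiful INSIG proteins hold it back. In atherosclerotic aorta, smooth muscle cells, endothelium and macrophages take up cholesterol from lipoproteins, and the fat and nerves around the vessel bring cells of other kinds.

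The promoters of the 3 members below are shown because the genes share a regulator and moved together over the 23 arrays. Hmgcs1 followed Idi1 less closely without the 5 neuronal arrays described below (Pearson's r of 0.73 and then 0.45). The windows run from 250 bases before to 50 bases after the annotated start of each gene (RefSeq, GRCm38.p6). Windows were found for 6 of the 8 genes, and those of Sqle and Fdps were not analysed here. Capitals mark the core of the sterol regulatory element (searched as TCACNCCAC) and the CCAAT box (searched as CCAAT, which reads ATTGG on the other strand), each on both strands.
Hmgcs1 promoter (chr13:119690101-119690400, plus strand): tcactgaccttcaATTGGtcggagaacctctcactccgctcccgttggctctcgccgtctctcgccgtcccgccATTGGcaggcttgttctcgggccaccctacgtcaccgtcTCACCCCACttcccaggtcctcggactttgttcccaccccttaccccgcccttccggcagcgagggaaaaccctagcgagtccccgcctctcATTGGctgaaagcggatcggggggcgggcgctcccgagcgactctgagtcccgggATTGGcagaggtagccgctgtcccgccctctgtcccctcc
Insig1 promoter (chr5:28071162-28071461, plus strand): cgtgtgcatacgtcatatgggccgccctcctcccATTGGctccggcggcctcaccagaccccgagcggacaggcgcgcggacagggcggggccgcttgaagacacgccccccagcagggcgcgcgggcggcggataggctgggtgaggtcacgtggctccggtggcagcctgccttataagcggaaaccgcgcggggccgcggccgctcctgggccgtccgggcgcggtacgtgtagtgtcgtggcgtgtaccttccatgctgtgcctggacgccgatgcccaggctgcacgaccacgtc
Idi1 promoter (chr13:8885356-8885655, plus strand): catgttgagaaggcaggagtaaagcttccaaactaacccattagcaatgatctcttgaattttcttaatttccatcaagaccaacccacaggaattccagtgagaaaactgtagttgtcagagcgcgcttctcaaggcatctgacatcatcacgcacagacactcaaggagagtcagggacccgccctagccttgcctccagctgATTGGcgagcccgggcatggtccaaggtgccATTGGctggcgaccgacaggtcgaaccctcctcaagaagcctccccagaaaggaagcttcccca
The sterol regulatory element core was found in the window of 1 of the 6 genes, Hmgcs1, at position -137 from the start (negative positions lie before it), and in 1.24% of all 32851 windows. The CCAAT box was found in 6 of 6 windows, against 37.4% of all windows, with 4 matches in Hmgcs1, 2 in Idi1 and 1 in each of the others. A GC box (GGGCGG, either strand) was also found in 6 of 6, against 35.7%. An E box (CACGTG) was found in 1 of 6, Insig1, against 7.15%. The motifs did not overlap with each other where they are marked, and a match is a run of letters, not a bound site.

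The labelled tissue was borne out by its markers: the mean log2 signal of 6 smooth muscle genes was 15.95 to 17.41 and that of 6 endothelial genes 10.40 to 11.88 on the 23 arrays. Hepatocyte genes were near background, at 3.39 to 4.76. A list of 5 sympathetic neuron genes (Th, Dbh, Npy, Snap25, Stmn2) split the arrays: Nor 8W replicate 3, CIH 8W replicates 3 and 5 and Nor 12W replicates 3 and 4 lay between 9.58 and 15.73, and the other 18 arrays between 5.32 and 7.11. These 5 are called the neuronal arrays below, and none of them is in CIH 12W or CIH 8W+Nor 4W. Background was taken as the 95th percentile of the background probes of each array, and 27.3 to 35.9% of gene-level probe sets exceeded it. Hmgcs1, Sqle, Idi1, Fdps, Cyp51, Insig1 and Srebf2 were above it on 23 of 23 arrays and Lss on 21. In whole aorta, fewer cells of a type and less RNA per cell cannot be told apart.

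The array that stood farthest apart for these genes was Nor 8W replicate 3. It had the highest signal of all 23 arrays for 7 of the 8 genes, Insig1 being the exception at rank 7. Its Hmgcs1 signal was 12.91, against 10.56 ± 0.16 (SD, n = 4) in the other Nor 8W arrays. For Fdps it was 8.58 against 5.89 ± 0.19 (SD, n = 4), for Sqle 8.35 against 6.16 ± 0.12, and for Idi1 8.91 against 6.93 ± 0.31. Cyp51 (7.93 against 6.57 ± 0.12), Srebf2 (8.40 against 7.32 ± 0.26) and Lss (6.36 against 5.60 ± 0.15) were also raised on this array, by 0.76 to 1.36, and Insig1 lay 0.98 above the mean of the others. The same array had the highest neuron list level, 15.73, the lowest macrophage list level, 7.97, and the lowest endothelium list level, 10.40, and the part of these cells in the values of the 8 genes was not tested. The neuronal arrays did not behave alike. Nor 12W replicates 3 and 4 were each above all 3 other Nor 12W arrays for 4 genes (Sqle, Idi1, Fdps and Cyp51), whereas CIH 8W replicate 3 was above all 3 non-neuronal CIH 8W arrays for 0 genes and CIH 8W replicate 5 for 1 (Sqle). Since 1 array decided several calls, the differences of the 8 genes are given with and without it.

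**Figure D1:**
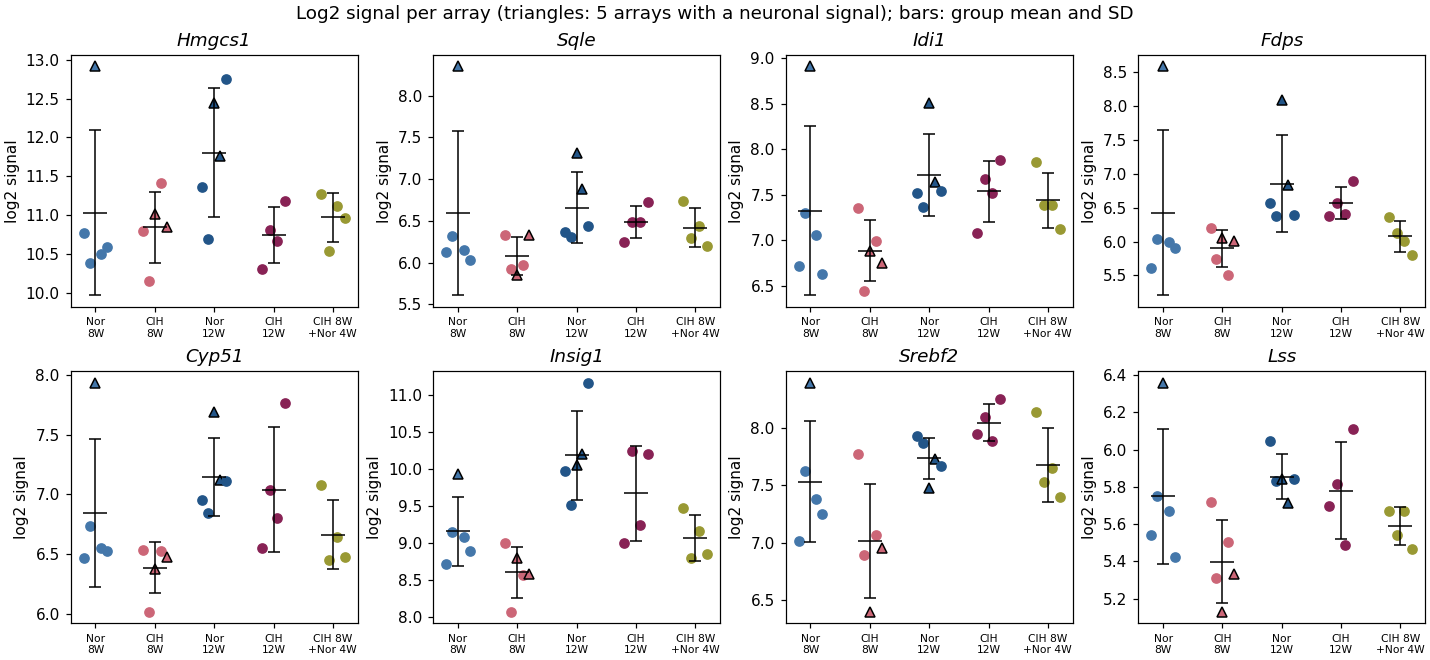
Log2 signal of the 8 genes (y axis) on each of 23 arrays by group (x axis), with the group mean and SD as bars and the 5 neuronal arrays as triangles. Nor 8W replicate 3 lies at the top of 7 panels, at 12.91 for Hmgcs1 and 8.58 for Fdps, and the lowest array of every panel is from CIH 8W.

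Hmgcs1 encodes the cytosolic HMG-CoA synthase that makes the precursor of mevalonate. Its log2 signal was 10.76, 10.39, 12.91, 10.50 and 10.59 in Nor 8W (replicates 1 to 5, as for all values listed this way) and 10.79, 10.15, 11.01, 11.42 and 10.84 in CIH 8W. In Nor 12W it was 11.36, 10.69, 12.44, 11.76 and 12.76, in CIH 12W 10.31, 10.80, 10.67 and 11.18, and in CIH 8W+Nor 4W 11.27, 10.54, 11.12 and 10.96. Nor 12W held 3 of the 4 highest arrays, and its range overlapped that of every other group. The mean was highest in Nor 12W (11.80 ± 0.83, SD, n = 5), followed by Nor 8W (11.03 ± 1.06), CIH 8W+Nor 4W (10.97 ± 0.31, n = 4), CIH 8W (10.84 ± 0.46) and CIH 12W (10.74 ± 0.36, n = 4), and the lower 4 means lay within 1 SD of each other.

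Isopentenyl units are made interchangeable by Idi1 and joined by Fdps. Idi1, the isomerase, ranged from 6.63 to 8.91 in Nor 8W, 6.44 to 7.36 in CIH 8W, 7.37 to 8.51 in Nor 12W, 7.08 to 7.88 in CIH 12W and 7.12 to 7.86 in CIH 8W+Nor 4W. Fdps, the farnesyl diphosphate synthase, was at 5.61, 6.04, 8.58, 5.99 and 5.91 in Nor 8W and at 6.20, 5.75, 6.05, 5.50 and 6.01 in CIH 8W. It was at 6.57, 6.37, 8.08, 6.84 and 6.39 in Nor 12W, at 6.38, 6.57, 6.41 and 6.90 in CIH 12W, and at 6.36, 6.13, 6.01 and 5.81 in CIH 8W+Nor 4W. All 4 CIH 8W+Nor 4W arrays were therefore below all Nor 12W and all CIH 12W arrays, although the nearest arrays, at 6.36, 6.37 and 6.38, lay close together.

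Sqle, the squalene epoxidase, ranged from 6.03 to 8.35 in Nor 8W, 5.84 to 6.33 in CIH 8W, 6.31 to 7.31 in Nor 12W, 6.25 to 6.73 in CIH 12W and 6.20 to 6.74 in CIH 8W+Nor 4W. Lss, the cyclase that closes squalene epoxide into lanosterol, was at 5.54, 5.75, 6.36, 5.67 and 5.42 in Nor 8W, 5.72, 5.31, 5.13, 5.50 and 5.33 in CIH 8W, and 6.05, 5.83, 5.85, 5.71 and 5.84 in Nor 12W. It was at 5.70, 5.82, 5.49 and 6.11 in CIH 12W and 5.67, 5.54, 5.67 and 5.47 in CIH 8W+Nor 4W, where every array was below every Nor 12W array. Cyp51, the demethylase of lanosterol, ranged from 6.47 to 7.93 in Nor 8W, 6.02 to 6.53 in CIH 8W, 6.84 to 7.69 in Nor 12W, 6.55 to 7.77 in CIH 12W and 6.45 to 7.07 in CIH 8W+Nor 4W. For these 3 enzymes the lowest of the 23 arrays was in CIH 8W.

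Insig1, which holds the SREBP-2 precursor in the endoplasmic reticulum, was at 8.72, 9.15, 9.94, 9.08 and 8.89 in Nor 8W and at 9.00, 8.07, 8.79, 8.57 and 8.58 in CIH 8W. It was at 9.98, 9.51, 10.06, 10.21 and 11.17 in Nor 12W, at 9.00, 10.24, 9.24 and 10.21 in CIH 12W, and at 9.48, 8.80, 9.16 and 8.85 in CIH 8W+Nor 4W. Every Nor 12W array was above every CIH 8W+Nor 4W array, and 1 Nor 8W array, replicate 3, overlapped the Nor 12W range. The mean fell in the order Nor 12W (10.19 ± 0.61), CIH 12W (9.67 ± 0.64, n = 4), Nor 8W (9.16 ± 0.47), CIH 8W+Nor 4W (9.07 ± 0.31, n = 4) and CIH 8W (8.60 ± 0.35), and neighbours in this order differed by less than the larger of their SDs, except the last pair. Srebf2, the regulator itself, was at 7.01, 7.63, 8.40, 7.39 and 7.25 in Nor 8W and 7.78, 6.89, 6.40, 7.06 and 6.95 in CIH 8W. It was at 7.93, 7.87, 7.48, 7.73 and 7.67 in Nor 12W, 7.95, 8.10, 7.89 and 8.25 in CIH 12W, and 8.14, 7.53, 7.65 and 7.40 in CIH 8W+Nor 4W. Its highest mean was thus in CIH 12W (8.05 ± 0.16, SD, n = 4) and its lowest in CIH 8W (7.01 ± 0.50, SD, n = 5), with a wide spread in both 8-week groups.

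At 8 weeks all 8 genes had a lower mean in CIH 8W than in Nor 8W, with a median log2 difference of -0.49 (range -0.55 to -0.19), against -0.003 over all probe sets, and 2 of the 8 passed the test. A gene is said to have risen or fallen where its unadjusted p was under 0.05 and its fold over 1.1 in a limma fit of all 65956 probe sets, the threshold of the study's methods. Srebf2 fell by 0.52 (standard error 0.23, adjusted p = 0.697 by Benjamini-Hochberg) and Lss fell by 0.35 (standard error 0.14, adjusted p = 0.696). No gene rose. Over all probe sets 2.47% fell and 3.99% rose, and no member or other probe set reached an adjusted p under 0.05 in limma, where the lowest was 0.696. Both calls rested on Nor 8W replicate 3: without it the differences were -0.30 (standard error 0.20) for Srebf2 and -0.20 (standard error 0.12) for Lss, the median over the 8 genes was -0.13, and 0 genes passed. Without the 5 neuronal arrays 0 genes passed, with a median of -0.08. The Srebf2 call was also lost without Nor 8W replicate 2 or CIH 8W replicate 2, 3 or 5, and the Lss call without CIH 8W replicate 3. In this comparison 5 of 6 macrophage genes rose, with a median of 1.62, and 3 of 6 endothelial genes rose, with a median of 0.50. Their part in the lower values of the 8 genes was not tested.

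At 12 weeks Hmgcs1 was lower under CIH and fell, against Nor 12W, by 1.06 (standard error 0.44, adjusted p = 0.339 in limma), and the other 7 genes did not pass. Over all probe sets 6.99% fell and 4.29% rose. Insig1 had a difference of -0.51 (standard error 0.31) and Srebf2 of 0.31 (standard error 0.24), and the other 5 lay between -0.29 and -0.08. The Hmgcs1 call was lost without Nor 12W replicate 3 (-0.90), Nor 12W replicate 5 (-0.82) or CIH 12W replicate 1 (-0.92), and it was kept without the 5 neuronal arrays (-0.86, standard error 0.38). Without Nor 8W replicate 3, which is in neither group and enters the pooled spread alone, Hmgcs1 was again the 1 gene that fell (-1.06, standard error 0.32). Without those arrays Sqle, Idi1, Fdps and Cyp51 turned to small positive differences of 0.06 to 0.12. Adipocyte genes fell in the same comparison (6 of 7, median -1.15), with an adipocyte list level of 7.91 to 8.97 in CIH 12W and 8.96 to 11.70 in Nor 12W. With that level as a covariate 0 genes passed. The level barely overlaps between CIH 12W and Nor 12W, so this fit cannot tell its part from that of CIH. The sympathetic neuron genes had a median of -3.78, with 0 of 5 past the threshold, and 2 of 4 Schwann cell and glia genes fell.

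Whether CIH acted differently at the 12-week and the 8-week time point was tested directly, as the 12-week difference minus the 8-week difference. It was positive and past the threshold for Srebf2, at 0.83 (standard error 0.34, adjusted p = 0.396 in limma), since Srebf2 was lower in CIH at 8 weeks and higher at 12 weeks. Over all probe sets 4.27% were higher and 6.16% lower. The Srebf2 value was 0.61 (standard error 0.29), still past the threshold, without Nor 8W replicate 3 and 0.30 (standard error 0.29) without the 5 neuronal arrays, where it no longer passed. Hmgcs1 went the other way, at -0.88 (standard error 0.61), which did not pass, and without Nor 8W replicate 3 its value was -1.35 (standard error 0.45), which did.

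The return to normoxia was addressed by setting CIH 8W+Nor 4W against CIH 12W, of the same total time, and against Nor 12W. Between CIH 12W and CIH 8W+Nor 4W 0 of the 8 genes passed, where 2.43% of all probe sets rose and 3.9% fell. Of the 8 differences 7 were positive, with a median of 0.28 against -0.02 over all probe sets, and Insig1 had the widest, 0.60 (standard error 0.33, adjusted p = 0.781 in limma). For Fdps (0.48, standard error 0.46) the 2 groups did not overlap, as for 2.35% of all probe sets in this direction, and it passed without the 5 neuronal arrays (same difference, standard error 0.16), none of which is in either group. Without Nor 8W replicate 3 alone 0 of the 8 passed. Of the 7 adipocyte markers 1 was higher and 1 lower in CIH 12W (median difference -0.60).

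Compared with Nor 12W, the mice returned to normoxia had a lower mean for all 8 genes, with a median of -0.38 (range -1.12 to -0.06), against -0.001 over all probe sets. Insig1 fell by 1.12 (standard error 0.31, adjusted p = 0.162 in limma), and it passed with each array of the groups left out in turn and without the 5 neuronal arrays (-1.15, standard error 0.37). The call of 1 of 8 stands beside 5.23% of all probe sets that fell and 4.14% that rose. Without Nor 8W replicate 3, an array of neither group that enters the pooled spread, 5 genes fell (Hmgcs1, Fdps, Cyp51, Insig1 and Lss). The differences were unchanged and the standard errors narrowed, for Fdps from 0.44 to 0.26. In that fit 5.71% of all probe sets fell. That share is no fair yardstick, since the array was singled out for its values of the 8 genes. Without the 5 neuronal arrays 3 fell (Fdps, Insig1 and Lss). In that fit 4.63% of all probe sets fell, a share with the same limit, since these 5 include Nor 8W replicate 3. The arrays of the groups did not overlap for Fdps, Insig1 and Lss, 3 of 8, against 2.6% of all probe sets. This comparison and CIH 12W vs. Nor 12W share the Nor 12W arrays, which held the highest mean of all the genes but Srebf2. Cell type markers differed here too: the sympathetic neuron genes had a median of -3.83 (1 of 5 fell), 2 of 4 Schwann cell and glia genes fell, 2 of 7 adipocyte genes fell (median -0.57), and 2 of 6 smooth muscle genes rose (median 0.38). Their part in the lower values of the 8 genes was not tested.

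Between 8 and 12 weeks in normoxia, the feeding time and the age of the mice rose together and cannot be told apart. All 8 genes had a higher mean in Nor 12W than in Nor 8W, with a median difference of 0.35 (range 0.06 to 1.03), against 0.004 over all probe sets. Insig1 rose by 1.03 (standard error 0.30, adjusted p = 0.293 in limma), and the other 7 did not pass. Over all probe sets 4.21% rose and 3.11% fell. Here the result turned on Nor 8W replicate 3. Without it 7 of 8 genes rose, all but Srebf2 (0.42, standard error 0.20). In that fit 4.25% of all probe sets rose, which is no fair yardstick. The array was singled out for its high signal of these genes, and its removal takes that signal out of Nor 8W. Hmgcs1 was then 1.24 higher (standard error 0.32), Insig1 1.22 (standard error 0.29), Fdps 0.96 (standard error 0.26) and Idi1 0.79 (standard error 0.23), and the lowest adjusted p among the 8 was 0.224. Without the 5 neuronal arrays 6 of 8 rose. These were Hmgcs1 (1.04), Insig1 (1.26), Fdps (0.56), Idi1 (0.55), Srebf2 (0.51) and Lss (0.31). In that fit 3.13% of all probe sets rose, again no fair yardstick, since Nor 8W replicate 3 is 1 of the 5. Sqle (0.21, standard error 0.13) and Cyp51 (0.40, standard error 0.23) did not pass in that fit.

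**Figure D2:**
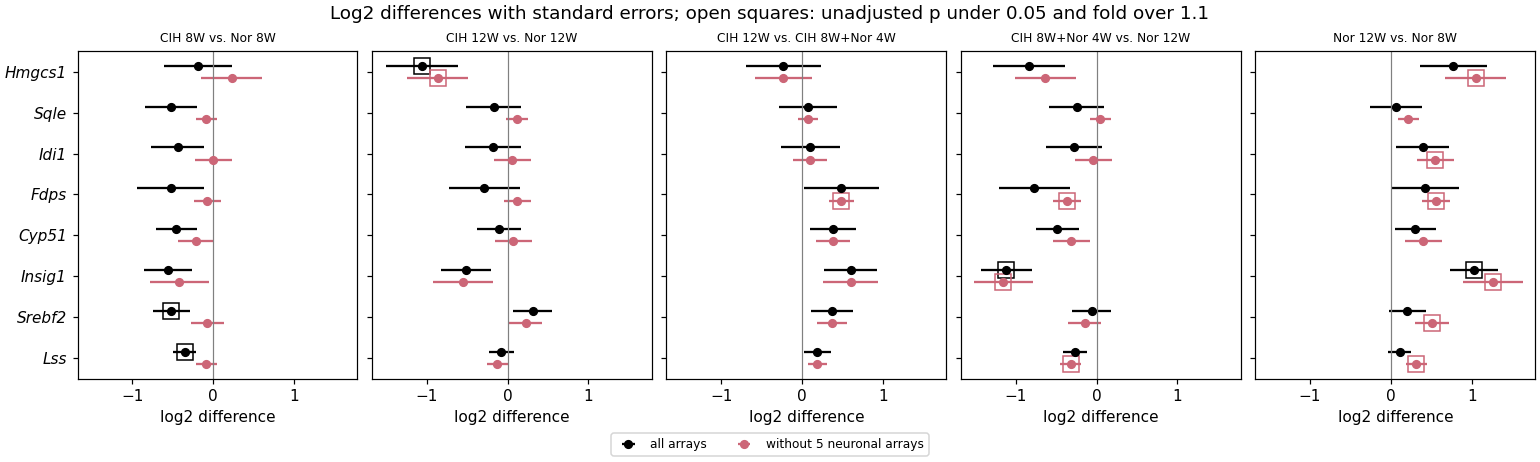
Log2 differences (x axis) of the 8 genes (y axis) in 5 comparisons, with standard errors, in the fit of all 23 arrays (black) and without the 5 neuronal arrays (red). Open squares mark genes past the threshold: 1 gene in Nor 12W vs. Nor 8W with all arrays and 6 without the neuronal arrays, and 2 and 0 in CIH 8W vs. Nor 8W.

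The rest of the pathway was described from a list of 20 further genes, of which 13 had a probe set of their own symbol. In Nor 12W vs. Nor 8W 1 rose and 1 fell: Nsdhl, the sterol dehydrogenase that acts with the C4 demethylation of lanosterol, rose by 0.79, and Insig2, the second INSIG protein, fell by 0.24. Without Nor 8W replicate 3, 4 of 13 rose, and without Nor 8W replicate 1 or 5 or Nor 12W replicate 3 none did. In CIH 8W+Nor 4W vs. Nor 12W 4 of 13 fell: Nsdhl by 0.93, Fdft1, the squalene synthase, by 0.67, Pmvk, the phosphomevalonate kinase, by 0.44, and Ebp, the sterol isomerase, by 0.18. None of the 13 rose. Over all probe sets 5.23% fell and 4.14% rose, and the shares of the other comparisons are those given above. The count of 4 became 7 without Nor 8W replicate 3, an array of neither group that enters the pooled spread alone. It was 1 without Nor 12W replicate 3 and 2 without CIH 8W+Nor 4W replicate 3. With CIH 12W set against CIH 8W+Nor 4W 2 rose, Pmvk by 0.31 and Ebp by 0.20, and 0 did without CIH 12W replicate 1. In CIH 8W vs. Nor 8W 2 fell, Fdft1 by 0.61 and Pmvk by 0.32. Without Nor 8W replicate 3 Fdft1 was at -0.26 and no longer passed, which left 1 of 13, and without the 5 neuronal arrays 0 of 13 fell. Leaving out any 1 of Nor 8W replicate 4 and CIH 8W replicates 1, 2, 3 and 5 also left 1. In CIH 12W vs. Nor 12W 1 fell, Nsdhl by 0.73, and the count was 0 to 2 with each array of the groups left out in turn. None of these 13 reached an adjusted p under 0.05 in limma. Their medians lay between -0.15 and 0.09 in the 5 comparisons, nearer to 0 than those of the 8 genes. Several of the 13 were dim, however. Mvd was above background on 0 of 23 arrays, Dhcr7 on 14, Hsd17b7 and Stard4 on 15, Mvk on 18 and the others on 23. The medians therefore do not show that the rest of the pathway changed less.

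Genes of fatty acid synthesis, the other branch that SREBP factors drive, had wider medians than the 8 cholesterol genes in the 12-week comparisons. All 7 measured genes rose in Nor 12W vs. Nor 8W (median 1.95), 3 of them at an adjusted p under 0.05 in limma: Acaca, the acetyl-CoA carboxylase, by 2.43, Me1, the malic enzyme, by 1.99, and Acss2, the acetyl-CoA synthetase, by 1.26. Over all probe sets 4.21% rose. In this comparison 2 of 7 adipocyte genes rose (median 0.42), and their part was not tested. All 7 fatty acid synthesis genes fell in CIH 8W+Nor 4W vs. Nor 12W (median -1.95), 4 of them at an adjusted p under 0.05 in limma. Over all probe sets 5.23% fell. In CIH 12W vs. Nor 12W 5 of the 7 fell (median -0.71), against 6.99% of all probe sets. In the last comparison 6 of 7 adipocyte genes fell as well (median -1.15). With the adipocyte level as a covariate 0 of the 7 fatty acid synthesis genes passed. That level barely overlaps between CIH 12W and Nor 12W, so its part cannot be told from that of CIH. Without CIH 12W replicate 3, and with no covariate, 3 of the 7 fell. In CIH 8W vs. Nor 8W Fasn, the fatty acid synthase, fell by 2.01 and Scd1, a desaturase, by 0.27. Over all probe sets 2.47% fell. The count of 2 was 1 without Nor 8W replicate 3 and 0 without the 5 neuronal arrays. The paper lists a smaller fold change for Fasn in this comparison, and the reason for the gap was not tested.

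Targets of the liver X receptors, which respond to excess sterol, were higher in CIH 8W vs. Nor 8W in 4 of 6 cases, led by Abcg1 (1.75) and Abca1 (1.22), both of which export cholesterol from cells. Over all probe sets 3.99% rose. The count of 4 was 0 of 6 with the 2 groups fitted alone and 0 without the 5 neuronal arrays. It was 2 without Nor 8W replicate 3 or CIH 8W replicate 2 or 3. In the same comparison 5 of 6 macrophage genes rose (median 1.62), and their part was not tested. In CIH 12W vs. Nor 12W 0 of the 6 passed. The 12-week minus 8-week difference of CIH effects was negative and past the threshold for 4 of 6, against 6.16% of all probe sets. The count was 0 without Nor 8W replicate 3, CIH 8W replicate 3 or CIH 12W replicate 4. It was also 0 without the 5 neuronal arrays or after median centring.

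The 8 genes varied together from array to array. Over the 28 pairs Pearson's r was 0.29 to 0.93 with a median of 0.73, and Spearman's rho was 0.27 to 0.92 with a median of 0.79. With permutation p-values (100000 permutations, two-sided) adjusted over the 28 pairs, 27 were under 0.05. The exception was Hmgcs1 with Srebf2 (r = 0.29, rho = 0.27, adjusted p = 0.174). Arrays were permuted across the groups, so these p-values take in group differences as well as variation within groups. The part of tissue composition was not tested. The closest pair was Sqle and Fdps (r = 0.93, rho = 0.83, p = 1e-05, the smallest that the permutations can give, adjusted p = 3.11e-05). The median r was 0.68 without Nor 8W replicate 3, 0.76 without the 5 neuronal arrays, 0.74 once the 2 most distant arrays of each pair were dropped, and 0.70 for deviations from the group means. Without the neuronal arrays Hmgcs1 stood apart from the enzymes further down, with r of 0.23 (Fdps) to 0.52 (Cyp51) against them. Its r was 0.72 with Insig1 and 0.20 with Srebf2.

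**Figure D3:**
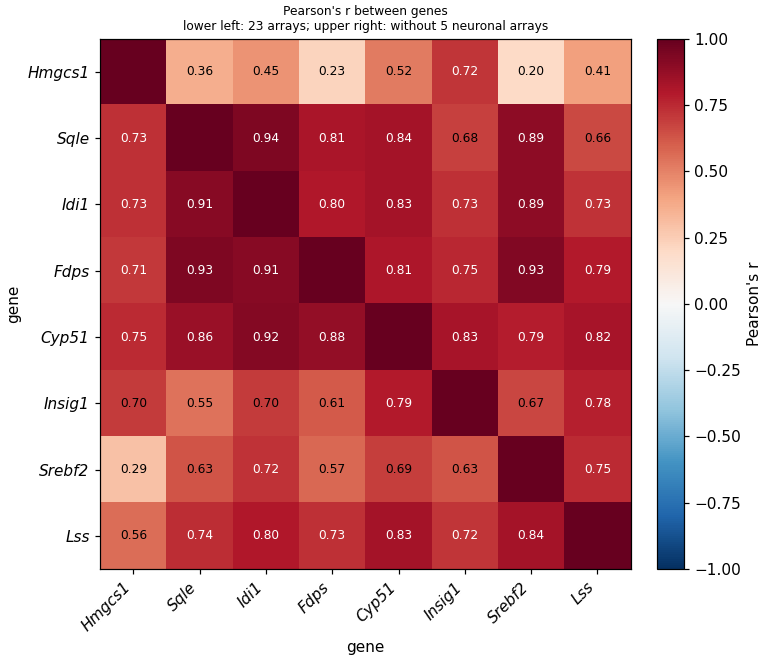
Pearson's r between the 8 genes (both axes), as a colour scale from -1 to 1, over 23 arrays below the diagonal and over the 18 arrays without a neuronal signal above it. The lowest value below the diagonal is 0.29, for Hmgcs1 and Srebf2, and the highest is 0.93, for Sqle and Fdps.

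Among 13031 genes above background on at least 12 arrays, the 6 whose signal followed the mean of the 8 genes most closely over the 23 arrays were Gm13502 (r = 0.96), Sc5d (0.95), Tmx2 (0.90), Nsdhl (0.90), Cacna1a (0.89) and Nkiras1 (0.89). Sc5d is the sterol desaturase of the last part of the pathway, and Nsdhl was described above. Without the 5 neuronal arrays the r values of Gm13502 and Sc5d were 0.92 and 0.93, and those of Tmx2, Nsdhl, Cacna1a and Nkiras1 0.76, 0.80, 0.76 and 0.73. The 6 closest genes over those 18 arrays were Sc5d, Cyb5b, Gm13502, Me1, Dus4l and Commd6.

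In all, 40 relations were computed between the 8 genes and the mean signals of 5 lists (fatty acid synthesis, adipocytes, macrophages, endothelium and smooth muscle). Insig1 followed the fatty acid synthesis list most closely, with r = 0.86 and rho = 0.89 over 23 arrays (permutation p = 1e-05 for both, adjusted p = 0.0002 and 0.000133). The r was 0.86 with the 2 arrays most distant from the list's median left out, 0.87 without the 5 neuronal arrays and 0.61 for deviations from the group means. Lss and Cyp51 followed the same list with r of 0.75 and 0.70. Srebf2 and Lss ran against the endothelium list, with r of -0.85 and -0.83 (rho -0.69 and -0.64, permutation p of 1e-05 and 2e-05, adjusted p = 0.0002 and 0.000267), and this held for deviations from the group means (-0.80 and -0.81) and without the 2 farthest arrays (-0.74 and -0.73). Against the macrophage list r was -0.67 for Srebf2 and -0.68 for Lss, and for deviations from the group means it was -0.80 and -0.77. Without the 2 farthest arrays it was -0.42 and -0.34, and without the 5 neuronal arrays -0.37 for both. With the adipocyte list r lay between -0.14 and 0.42 for the 8 genes, with adjusted p-values of 0.0838 and above. The neuron list splits the arrays into separate clusters, so no r is given with it.

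**Figure D4:**
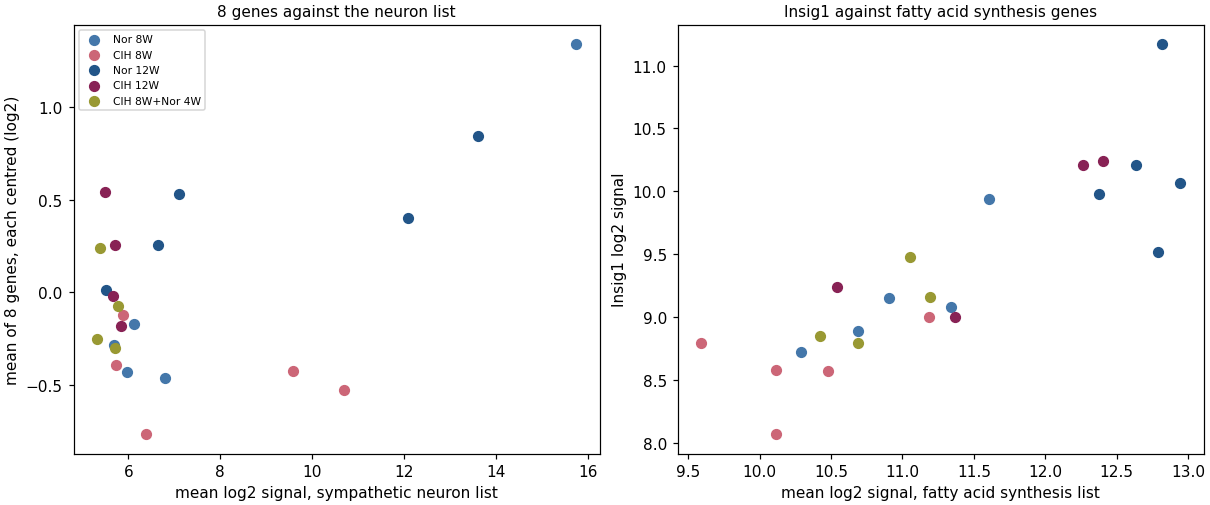
Left: mean of the 8 genes, each centred on its mean over 23 arrays (y axis, log2), against the mean log2 signal of the sympathetic neuron list (x axis), 1 point per array, coloured by group; the 2 arrays with the highest neuron levels, 15.73 and 13.60, have the highest means, 1.34 and 0.84, while the neuronal CIH 8W arrays lie at -0.53 and -0.43. Right: log2 signal of Insig1 (y axis) against the mean log2 signal of the fatty acid synthesis list (x axis), where r was 0.86.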

How the data were processed

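Aortic RNA of 23 mice was measured on Clariom D mouse arrays, grouped by the sample labels (5 arrays in each of Nor 8W, CIH 8W and Nor 12W and 4 in each other group). Each array was taken as 1 animal, since no source states pooling, so p-values reflect variation among these arrays. No batch or hour of collection is given in the sources used here. Precision is limited by how many arrays there are.

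The deposited values are log2 signals, 1 per probe set and array, normalized by the authors in the Transcriptome Analysis Console according to the methods, or in Affymetrix Expression Console according to the processing notes. They were used as deposited, and differences are on that scale. Of 72688 probe sets, 6732 controls were left out. Of the 65956 analysed, 30638 carried 1 gene symbol in the platform annotation, 2176 several and 33142 none.

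All probe sets were fitted in limma 3.58.1 (R 4.3.3) with a mean for each of the 5 groups and empirical Bayes moderation, and adjusted by Benjamini-Hochberg over all 65956. A call is an unadjusted p under 0.05 with a fold over 1.1. The comparisons share arrays: Nor 12W enters 4 of the 6. Correlations used 100000 permutations (two-sided) of the arrays across the groups, so their p-values take in group differences. No p-value was computed for deviations from group means. Array r values were also computed between deviations from group means. The fit was tested on simulated data. Promoter sequences are from RefSeq (GRCm38.p6).

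The 8 genes were always named. Other pathway genes were named if called, by smallest p (up to 4 per comparison), as were up to 3 genes each of fatty acid synthesis and of liver X receptor targets, and the 6 genes most alike. The genes, the lists and the choice of the 5 neuronal arrays were made with earlier results of these data known. Alternatives were a fit of the groups compared alone, median centring, quantile normalization, a filter on dim probe sets, limma with trend and robust moderation, weights on arrays, a block for the replicate number, leaving out each array, the 5 neuronal arrays left out, adipocyte or neuron list levels as covariates, averaging a gene's probe sets, a fold over 1.5, and an added F-test.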

Additional observations from a re-analysis of the deposited data

Results flagged for a closer look

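Of 40 gene and group combinations tested, 6 had an array whose gap to its nearest neighbour took up more of the range than Dixon's 95% limit, which chance gives in about 1 of 20. In Nor 8W, replicate 3 stood apart for Hmgcs1 (12.91), Sqle (8.35), Fdps (8.58) and Cyp51 (7.93). In Nor 12W, replicate 3 stood apart for Idi1 (8.51) and Fdps (8.08). Both arrays had a high level of the sympathetic neuron list, 15.73 and 13.60, and the part of that signal in these values was not tested.

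The effect of CIH on Srebf2 differed between 12 and 8 weeks by 0.83 (adjusted p = 0.396 in limma). It passed the unadjusted threshold and not the adjusted one, and without the 5 neuronal arrays the difference was 0.30.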

How the results depend on the processing

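In the 6 comparisons the log2 differences of the 8 genes kept their direction and side of the threshold under several settings. These were median centring, trended and robust moderation, removal of dim probe sets and the added F-test. Averaging a gene's probe sets could not change a value, since each of the 8 genes had 1. No other setting left all 48 as they were, and the cause was not tested. In CIH 8W vs. Nor 8W, 2 genes fell; the count was 1 with the 2 groups alone, 4 after quantile normalization, 0 without the 5 neuronal arrays, 4 with the neuron list as a covariate and 0 at a fold over 1.5. In CIH 12W vs. Nor 12W, 1 fell; with the groups alone 1 rose, and with the adipocyte or the neuron list as a covariate 0 fell. For CIH 12W vs. CIH 8W+Nor 4W, 0 rose; the count was 2 with the groups alone, 1 without the neuronal arrays and 1 with the adipocyte covariate. In CIH 8W+Nor 4W vs. Nor 12W, 1 fell; the count was 4 with the groups alone, 3 without the neuronal arrays and 2 with the adipocyte covariate. In Nor 12W vs. Nor 8W, 1 rose; the count was 2 with array weights and 6 without the neuronal arrays. For the difference of effects, 1 was higher, and the count was 0 without the neuronal arrays and 4 with the neuron covariate. Calls over all probe sets moved with these settings too. In CIH 8W vs. Nor 8W 141 to 2147 fell (main fit 1626), and in CIH 12W vs. Nor 12W 1082 to 6257 (4612). In CIH 8W+Nor 4W vs. Nor 12W 943 to 4662 fell (3449), and in Nor 12W vs. Nor 8W 342 to 3292 rose (2779). Each lowest count was at a fold over 1.5. A changed count is thus not by itself particular to the 8 genes.

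Replicate numbers are shared by the groups. Over 43 same-numbered pairs the correlation of deviations from group means was -0.32 to 0.63 (median 0.02, 16 pairs over 0.1). The median over the other pairs was -0.02, and 10 of 23 arrays were closest to their own number. The count that chance would give was not computed, so these values do not decide whether the numbers pair the arrays. With the replicate number as a block, 1 gene fell in CIH 8W vs. Nor 8W in place of 2, and no other call of the 8 genes changed.

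Some differences turned sign. With array weights Hmgcs1 in CIH 8W vs. Nor 8W was 0.0025 and Insig1 in the difference of effects -0.035. Without the neuronal arrays Hmgcs1 and Idi1 were 0.23 and 0.0030 in CIH 8W vs. Nor 8W, Sqle, Idi1, Fdps and Cyp51 were 0.12, 0.060, 0.12 and 0.069 in CIH 12W vs. Nor 12W, Sqle was 0.049 in CIH 8W+Nor 4W vs. Nor 12W, whereas Insig1 and Lss were -0.13 and -0.040 in the difference of effects. With the adipocyte covariate Sqle was -0.0040 for CIH 12W vs. CIH 8W+Nor 4W, Srebf2 0.021 in CIH 8W+Nor 4W vs. Nor 12W, with Fdps -0.17 in the difference of effects. With the neuron covariate Sqle, Idi1, Fdps and Cyp51 were 0.33, 0.26, 0.39 and 0.21 in CIH 12W vs. Nor 12W. In CIH 8W+Nor 4W vs. Nor 12W Sqle, Idi1 and Srebf2 were 0.28, 0.18 and 0.0015, and in Nor 12W vs. Nor 8W Sqle was -0.077. The neuron list splits the arrays into separate clusters, so its slope rests largely on the 5 neuronal arrays. None of these is in CIH 12W or CIH 8W+Nor 4W, where the level was at most 5.84 and 5.77. This fit therefore cannot settle the part of that level.

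With each array of the groups compared left out in turn, the genes that fell numbered 0 to 3 in CIH 8W vs. Nor 8W, 1 to 2 in CIH 8W+Nor 4W vs. Nor 12W, besides 0 to 2 in CIH 12W vs. Nor 12W. Those that rose numbered 1 to 7 in Nor 12W vs. Nor 8W, the 7 without Nor 8W replicate 3, and 0 to 1 for CIH 12W vs. CIH 8W+Nor 4W, while 0 to 1 were lower in the difference of effects. Differences whose sign turned ranged, in Nor 12W vs. Nor 8W, from -0.10 to 0.50 for Sqle; in CIH 8W vs. Nor 8W, from -0.35 to 0.28 for Hmgcs1 and -0.73 to 0.014 for Fdps; in CIH 12W vs. Nor 12W, from -0.29 to 0.020 for Idi1, -0.41 to 0.021 for Fdps, -0.35 to 0.059 for Cyp51 and -0.19 to 0.020 for Lss; for CIH 12W vs. CIH 8W+Nor 4W, from -0.010 to 0.18 for Sqle and -0.015 to 0.25 for Idi1; in CIH 8W+Nor 4W vs. Nor 12W, from -0.21 to 0.034 for Srebf2; in the difference of effects, from -0.10 to 0.51 for Sqle, -0.14 to 0.46 for Idi1, -0.30 to 0.55 for Fdps and -0.16 to 0.29 for Insig1.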
